A study of Mus musculus with 6 samples.

Results

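Tubulin binding cofactor A (Tbca) was read 0 times in every vehicle library and 96, 52 and 106 times in the 3 KCL-HO-1i libraries. It was chosen by those counts, and 9 further genes of the tubulin folding pathway were added for their function, to ask whether they share its pattern. These 10 of the 21841 genes in the table are the cofactors Tbca, Tbcb, Tbcc, Tbcd and Tbce, the alpha tubulins Tuba1a, Tuba1b and Tuba1c, and the beta tubulins Tubb5 and Tubb6. The values that chose Tbca are given as a description, and no test result of Tbca is given. Tbca was, however, among the 7263 genes fitted by edgeR and among the genes of the shares over all genes.

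The libraries were bulk RNAseq of macrophages sorted as CD206+LYVE-1+ from mammary tumors. The strain was FVB/N-Tg(MMTV-PyVT)634Mul/J, whose animals carry the polyoma middle T oncogene under a mammary tumor virus promoter and develop breast tumors spontaneously. All 6 mice were labelled as genotype WT, and their age was not given in the sources used here. A group of 3 mice received vehicle and a group of 3 received KCL-HO-1i, a tin porphyrin inhibitor of the heme-degrading enzyme heme oxygenase-1, by intraperitoneal injection at 25 µmol/kg daily, and tumors were taken 36 h after treatment began. Each library came from 5000 sorted cells and carried its own animal code, and the prefix of the codes differed between vehicle and KCL-HO-1i mice, so a batch that runs with these codes and the treatment cannot be told apart.

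Microtubules are built from dimers of alpha and beta tubulin. A newly made tubulin chain is passed by prefoldin to the chaperonin CCT, and the folded monomer is then captured by a cofactor, TBCA or TBCD for beta tubulin and TBCB or TBCE for alpha tubulin. TBCC, TBCD and TBCE with the small GTPase ARL2 form the assembly that joins both monomers into a dimer. Macrophages use microtubules for vesicle transport, phagocytosis and migration.

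The alpha tubulin genes are nearly identical, and this bears on how their reads were assigned. Their positions here are from GENCODE M21 on GRCm38 (mm10). Tuba1a lies at chr15:98949837-98953703 and Tuba1b at chr15:98931425-98934565, both on the minus strand, and Tuba1c lies at chr15:99029891-99038110 on the plus strand. The coding sequences of Tuba1a and Tuba1b were 98.3% identical over 1356 bases, those of Tuba1b and Tuba1c 98.3% over 1350 bases, and those of Tuba1a and Tuba1c 97.5%. The window of 60 coding bases with the most differences (coding positions 640 to 699, counted from the first base of the start codon) is shown because it is where Tuba1a can be told from the others. Capitals mark the 10 bases that differ among the 3 genes.
Tuba1a: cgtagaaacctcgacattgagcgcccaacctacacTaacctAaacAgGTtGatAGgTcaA
Tuba1b: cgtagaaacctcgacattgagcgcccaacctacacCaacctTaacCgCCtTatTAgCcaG
Tuba1c: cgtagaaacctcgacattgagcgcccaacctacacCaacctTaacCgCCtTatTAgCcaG
Even there Tuba1b and Tuba1c were the same. Of the stretches of 31 bases in the longest coding transcript, 77.0% in Tuba1a, 75.4% in Tuba1b and 63.9% in Tuba1c also occurred in transcripts of other genes. The corresponding share was 38.6% in Tbca, 4.43% in Tubb5, 3.94% in Tubb6 and 0.165% in Tbce, and Tbcb, Tbcc and Tbcd shared none. In Tbca most of the shared stretches were those of Gm6142 (25.9% of the transcript's stretches) and Gm4374 (18.1%), which were not analysed here.

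In depth the libraries held 206728, 215647 and 338255 estimated counts with vehicle and 207812, 319737 and 535224 after KCL-HO-1i. At this depth 3 counts, taken here as the detection floor of a library, correspond to 5.61 to 14.5 CPM (counts scaled to a common library total), which covers counting error only. Genes detected, with at least 1 count, numbered 15101, 14013 and 17311 with vehicle and 7584, 15141 and 10773 after KCL-HO-1i. Mitochondrial genes took 1.17% to 3.77% of the counts with vehicle and 2.45% to 41.8% after KCL-HO-1i, the largest share being in KCL-HO-1i replicate 3. Olfactory and vomeronasal receptor genes, families best known from sensory neurons, took 5.98% to 6.40% with vehicle and 2.20% to 4.18% after KCL-HO-1i. The 15 general macrophage genes together took 0.0459% to 0.167% with vehicle and 0.412% to 0.770% after KCL-HO-1i. Lyz2 had the highest mean of the 15, at 217 against 2050 CPM, and 6 were higher without overlap, as were 3.47% of the whole table. Cx3cr1, Cd68 and Fcgr1 had lower means after KCL-HO-1i, at 60.2, 32.1 and 20.5 CPM with vehicle against 29.2, 18.9 and 20.1 CPM. Of the genes behind the sort, Adgre1 (F4/80) was counted 3, 3 and 1 times with vehicle and 26, 44 and 72 times after KCL-HO-1i, and Mrc1 (CD206) 12.0, 0 and 2.52 times against 30.6, 30.9 and 104 times. The other sort genes overlapped between the groups, Lyve1 being counted 22, 8 and 12.4 times against 8, 38 and 36 times and Ptprc (CD45) 4, 6 and 0 times against 0, 17.7 and 94 times. The 10 mammary epithelial genes summed to 65, 19 and 52 counts with vehicle and 357, 109 and 232 counts after KCL-HO-1i. The casein gene Csn3 was counted 39, 1 and 18 times against 244, 79 and 176 times. It made up most of that sum in vehicle replicate 1 and in each KCL-HO-1i library, but not in the other vehicle libraries. The sums of the other 9 genes overlapped (26, 18 and 34 against 113, 30 and 56.4 counts). Csn2, Wap and Lalba were at 0 in every vehicle library, of which Csn2 and Wap were at 0 in KCL-HO-1i replicate 2 as well, and Cdh1 was lower without overlap, at 36.4 against 3.24 CPM in the means. The mitochondrial share and the number of genes detected overlapped between the groups, whereas the receptor share, the macrophage share and the epithelial sum with Csn3 did not. The part of any of them in the results on tubulin genes was not tested.

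The cofactors did not share the pattern of Tbca. TBCA, a small chaperone that holds beta tubulin after its release from CCT, is encoded at chr13:94788910-94842922 on the plus strand. Scaled by TMM, the level of Tbca was 359, 169 and 309 CPM in the KCL-HO-1i libraries, a mean of 279 ± 98.7 (SD, n = 3), against a mean floor of 11.5 CPM in the vehicle libraries. On this scale its level was at least 24.2-fold higher after KCL-HO-1i, which describes the counts that chose Tbca, and every KCL-HO-1i count lay far above the floor. The bound was 3.14-fold when libraries were scaled to their general macrophage genes. Over the whole table, 40 genes (0.183%) were at 0 in every vehicle library and above 0 in every KCL-HO-1i library. Next to Tbca in the lowest KCL-HO-1i count were Ubxn1 at 35 and Vmn2r20 at 23, and these were named after their values were seen.

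TBCB, which captures alpha tubulin, is encoded at chr7:30224131-30232272 on the minus strand. Tbcb was counted 3, 0 and 2 times with vehicle and 0 times in each KCL-HO-1i library, so the counts lay at or under the floor in all 6 libraries and no fold is given. The difference in CPM could not be told from the spread between mice (two-sided exact permutation test, p = 0.40, adjusted p = 0.56 over the genes other than Tbca that had counts). Its gene overlaps Polr2i on the opposite strand, and the libraries were made with a kit that keeps the strand.

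TBCC, which triggers the GTPase step that releases the dimer, is encoded by a single annotated transcript at chr17:46890684-46891847 on the plus strand. Tbcc was counted 12, 1 and 4 times with vehicle and 0, 9 and 13 times after KCL-HO-1i. The means were 23.2 ± 27.2 CPM and 22.4 ± 19.8 CPM (SD, n = 3 each), the groups overlapped, and the exact permutation test gave p = 1.0. In KCL-HO-1i replicate 1 Tbcc was at 0 while Tbca reached 96 counts.

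Tbcd and Tbce were at 0 in all 6 libraries. TBCD (chr11:121451949-121617164, plus strand) and TBCE (chr13:13997949-14039638, minus strand) capture beta and alpha tubulin, respectively, and are the large subunits of the dimer assembly. Each count of 0 allows a level of up to 8.31 to 13.6 TMM-scaled CPM, depending on the library, so expression below that was not detectable. A count of 0 in every library was found for 2323 genes, 10.6% of the table. Thus among the 5 cofactors Tbca alone stood at 0 with vehicle and above 0 in every KCL-HO-1i library, Tbcb leaned the other way at counts of at most 3, and Tbcc was present in both groups.

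**Figure D1:**
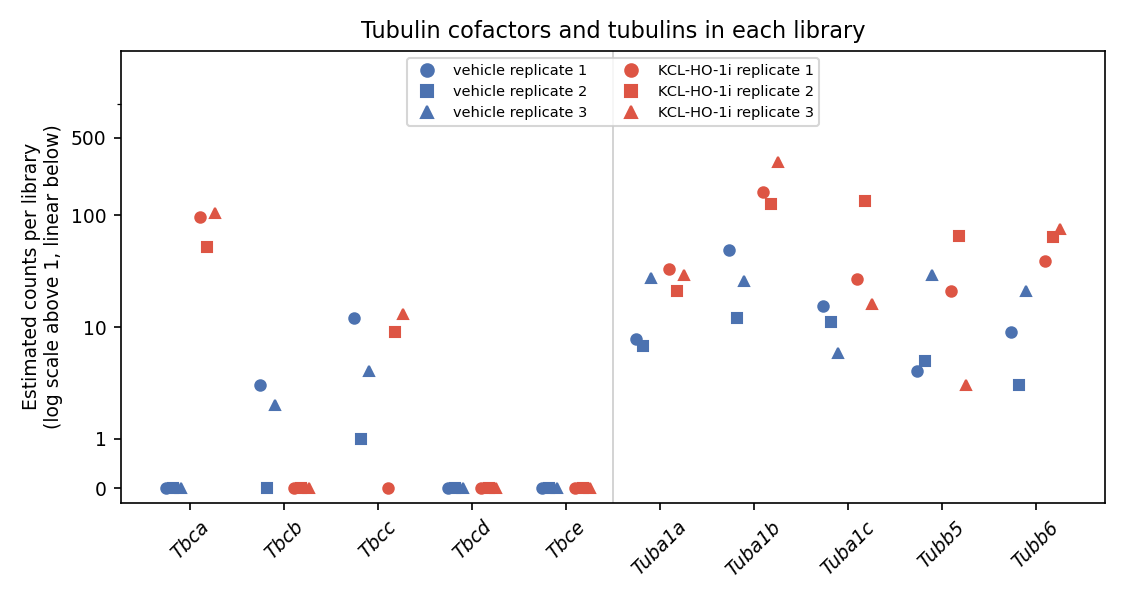
Estimated counts of the 10 genes in each of the 6 libraries (vertical axis, log scale above 1 and linear below), with vehicle in blue, KCL-HO-1i in red and a marker shape for each replicate. Tbca is at 0 in all vehicle libraries and between 52 and 106 after KCL-HO-1i, Tbcd and Tbce are at 0 throughout, and the tubulin genes on the right are above 0 in every library.

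All 5 tubulin genes, in contrast to Tbca, were read in every vehicle library. They passed the filter on low counts, as did Tbca through its KCL-HO-1i counts, whereas Tbcb, Tbcc, Tbcd and Tbce did not. Of the 5, only Tuba1b reached the filter's level in every vehicle library. Tuba1a and Tubb6 passed through their KCL-HO-1i counts, which favoured a positive sign. Tuba1c and Tubb5 passed through libraries of both groups. The edgeR quasi-likelihood test (Benjamini-Hochberg over 7263 genes, called at adjusted p under 0.05 and an absolute log2 fold change above 0.6) called 0 of the 5, and 0 of all genes (0%). At an unadjusted p under 0.05 there were 2 of the 5, Tuba1b and Tubb6, against 586 of all genes tested (8.07%). DESeq2 called 0 of the 5 both without a filter (1.43% of all genes called) and on the filtered genes (3.25%), and limma called 1, Tuba1b (4.12% of all genes called). All 5 fold changes were positive, with a median log2 fold change of 2.17, while the median over all genes tested was -0.52, with 2367 positive and 4896 negative. That direction holds relative to TMM scaling and turned for each of the 5 when libraries were scaled to their general macrophage genes.

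Tuba1b, the alpha tubulin with the highest level here, was counted 48.6, 12.1 and 25.7 times with vehicle and 161, 127 and 302.5 times after KCL-HO-1i. Its level was 220, 50.7 and 71.1 CPM against 604, 411 and 881 CPM, so that every KCL-HO-1i library lay above every vehicle library. The means were 114 ± 92.6 and 632 ± 236 CPM (SD, n = 3 each), and the log2 fold change was 2.46 ± 0.85 (SE, edgeR quasi-likelihood adjusted p = 0.414). Limma gave a log2 fold change of 2.66 with an adjusted p of 0.0161, and DESeq2 gave adjusted p-values of 0.150 without a filter and 0.0699 on the filtered genes. The exact permutation test gave p = 0.10, the smallest that 3 mice against 3 allow.

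Tuba1c, from the same cluster on chromosome 15, was counted 15.4, 11.0 and 5.80 times with vehicle and 26.9, 136 and 16.0 times after KCL-HO-1i. KCL-HO-1i replicate 2 stood apart at 441 CPM, against 100 and 46.7 CPM in the other KCL-HO-1i libraries and 16.1 to 69.6 CPM with vehicle, and the groups overlapped. The log2 fold change was 2.17 ± 1.05 (SE, edgeR quasi-likelihood adjusted p = 0.649), and it fell to 0.74 without KCL-HO-1i replicate 2.

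Tuba1a, known chiefly from the developing nervous system, was counted 7.76, 6.82 and 27.6 times with vehicle and 33.4, 20.9 and 29.0 times after KCL-HO-1i. The highest vehicle library lay among the KCL-HO-1i libraries. Its means were 46.7 ± 25.9 and 92.4 ± 29.4 CPM (SD, n = 3 each), with a log2 fold change of 0.93 ± 0.95 (SE, edgeR quasi-likelihood adjusted p = 0.917).

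Since reads cannot always be assigned among these 3 genes, their counts were also summed. The sum was 71.7, 29.95 and 59.0 counts with vehicle and 222, 283.5 and 347.5 counts after KCL-HO-1i. The means were 205 ± 106 and 920 ± 91.7 CPM (SD, n = 3 each), 4.49-fold higher after KCL-HO-1i, and the groups did not overlap. Within the sum, Tuba1b took 67.8%, 40.3% and 43.5% of the counts with vehicle and 72.8%, 44.7% and 87.0% after KCL-HO-1i. The share assigned to Tuba1c ranged from 4.61% to 48.0% among the KCL-HO-1i libraries alone, while their sums lay between 222 and 347.5 counts. On the scale set by general macrophage genes, the sum was instead 0.614 times the vehicle level, with overlapping groups.

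**Figure D2:**
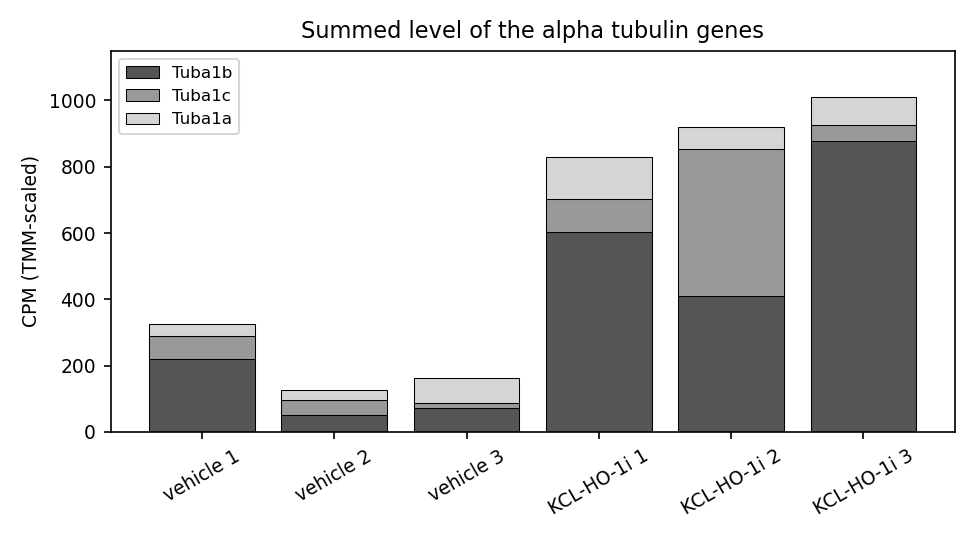
Summed TMM-scaled CPM of Tuba1a, Tuba1b and Tuba1c in each library, stacked by gene. The 3 KCL-HO-1i libraries (mean 920 CPM) stand above the 3 vehicle libraries (mean 205 CPM), and the part assigned to Tuba1c is largest in KCL-HO-1i replicate 2.

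Of the beta tubulins, Tubb6, a widely expressed isotype, was counted 9, 3 and 21 times with vehicle and 39, 64 and 76 times after KCL-HO-1i. Its level was 40.8, 12.6 and 58.2 CPM against 146, 208 and 221 CPM, without overlap, with means of 37.2 ± 23.0 and 192 ± 40.2 (SD, n = 3 each). The log2 fold change was 2.34 ± 0.89 (SE, edgeR quasi-likelihood adjusted p = 0.487, unadjusted p = 0.0229). The exact permutation test gave p = 0.10 and an adjusted p of 0.35 over the genes other than Tbca that had counts.

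Tubb5, a widely expressed beta tubulin, lies at chr17:35833921-35838306 on the minus strand. It was counted 4, 5 and 29.1 times with vehicle and 21, 65 and 3 times after KCL-HO-1i. KCL-HO-1i replicate 3 held the lowest count of the 6, and the groups overlapped. That library had the largest total, of which 41.8% was mitochondrial. The log2 fold change was 1.29 ± 1.22 (SE, edgeR quasi-likelihood adjusted p = 0.914), and it ranged from 0.07 (without KCL-HO-1i replicate 2) to 2.50 (without vehicle replicate 3) when each library was left out in turn. Of the 9 genes other than Tbca, Tuba1b and Tubb6 were thus the 2 whose groups did not overlap, both higher after KCL-HO-1i, as were 7.88% of the genes tested and 3.47% of the whole table. Another 16.2% of the genes tested and 11.7% of the whole table were lower without overlap.

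The direction of the tubulin genes depended on the scaling. In an alternative, the libraries were scaled so that their 15 general macrophage genes summed to the same level, which moved the median over all genes tested from -0.52 to -3.75 on the log2 scale. The log2 fold changes were then -0.16 for Tuba1b, -0.76 for Tubb6, -1.0 for Tuba1c, -2.12 for Tuba1a and -2.14 for Tubb5, and none of the 5 was called, although 12 genes were called higher and 4388 lower. Each of the 5 stayed above the median of all genes, and Tbcc, at 43.9 against 6.19 CPM, then lay lower after KCL-HO-1i without overlap. Tbca was at least 3.14-fold higher on that scale. With bulk libraries, fewer cells of a type and less RNA per cell cannot be told apart.

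**Figure D3:**
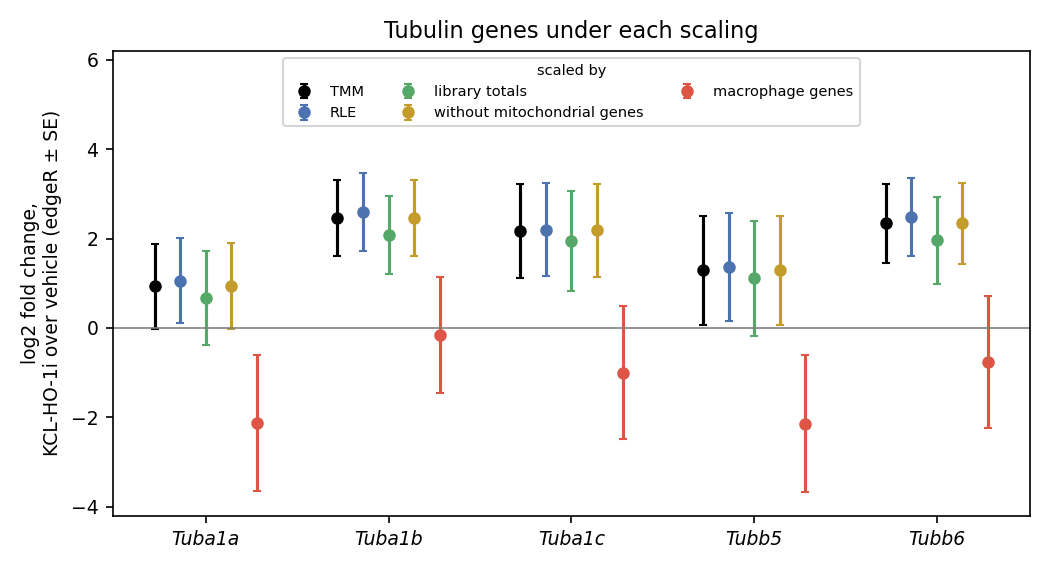
Log2 fold change (KCL-HO-1i over vehicle, edgeR, bars are SE, 3 mice a group) of the 5 tubulin genes under 5 ways of scaling the libraries. Under the first 4 scalings each gene is above 0, and when scaled to the general macrophage genes each is below 0, from -0.16 for Tuba1b to -2.14 for Tubb5.

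Compared per kilobase of the longest annotated transcript, Tbca had the highest mean level of the 10 genes after KCL-HO-1i, 441 ± 156 CPM per kb (SD, n = 3). Tuba1b followed at 363 ± 136 CPM per kb, and these neighbours overlapped, as Tbca spanned 266 to 567 and Tuba1b 236 to 506 CPM per kb. Tubb6 at 109 ± 22.9, Tuba1c at 99.0 ± 108, Tuba1a at 51.2 ± 16.3, Tubb5 at 37.5 ± 38.7 and Tbcc at 19.2 ± 17.0 CPM per kb came next. Tubb6, at 83.0 to 126 CPM per kb, did not reach Tuba1b, and each of the later genes overlapped the one before it. With vehicle, Tuba1b led at 65.4 ± 53.1 CPM per kb, and Tuba1a, Tuba1c, Tubb6, Tbcc and Tubb5 lay between 15.1 and 25.9 CPM per kb. Tbcb stood at 4.51 ± 4.83 CPM per kb and Tbca, Tbcd and Tbce at 0.

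By the longest annotated transcript, Tbca is the shortest of the 10 genes at 633 bases, and the others range from 1164 bases (Tbcc) to 4832 bases (Tbcd). By the median transcript, Tbcb at 502 bases is shorter than Tbca at 528 bases, and Tuba1b has 1134.5 bases. Levels per kb of the median transcript were not compared. Among the 1818 genes whose longest transcript has at least 500 but under 1000 bases, 35.6% were at 0 in every vehicle library and 49.8% in every KCL-HO-1i library. For the 4505 genes with at least 1000 but under 2000 bases, which include 7 of the 10 genes, the shares were 16.6% and 29.6%, and for the 6614 genes with 4000 bases or more, which include Tbcd, they were 6.26% and 9.46%. A count of 0 was thus more frequent in short genes in both groups, and in each length class more frequent after KCL-HO-1i, the reverse of Tbca. KCL-HO-1i replicates 1 and 3, with 7584 and 10773 genes detected, held fewer genes than any vehicle library, and the part of this in the zeros was not tested. In the class of Tbca, 12 genes were at 0 in every vehicle library and above 0 in every KCL-HO-1i library, and 43 showed the opposite. Over the whole table the opposite pattern was seen in 529 genes (2.42%).

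The distribution of counts over transcript length also differed between the groups. Genes in the length class of Tbca took 10.8%, 13.0% and 11.6% of the vehicle counts and 21.6%, 20% and 39.6% after KCL-HO-1i. Mitochondrial genes were not left out of the length classes. They took 9.68%, 2.45% and 41.8% of the counts in the KCL-HO-1i libraries, and their part in these shares was not tested. Genes with 4000 bases or more took 49.2%, 50.0% and 51.3% against 35.1%, 35.9% and 20.9%. The groups did not overlap in either class, and the part of this shift in the counts of Tbca was not tested. Across the 10 genes themselves, length and count had Spearman correlations between -0.46 and 0.18 within a library, over 10 genes that share the library's depth.

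**Figure D4:**
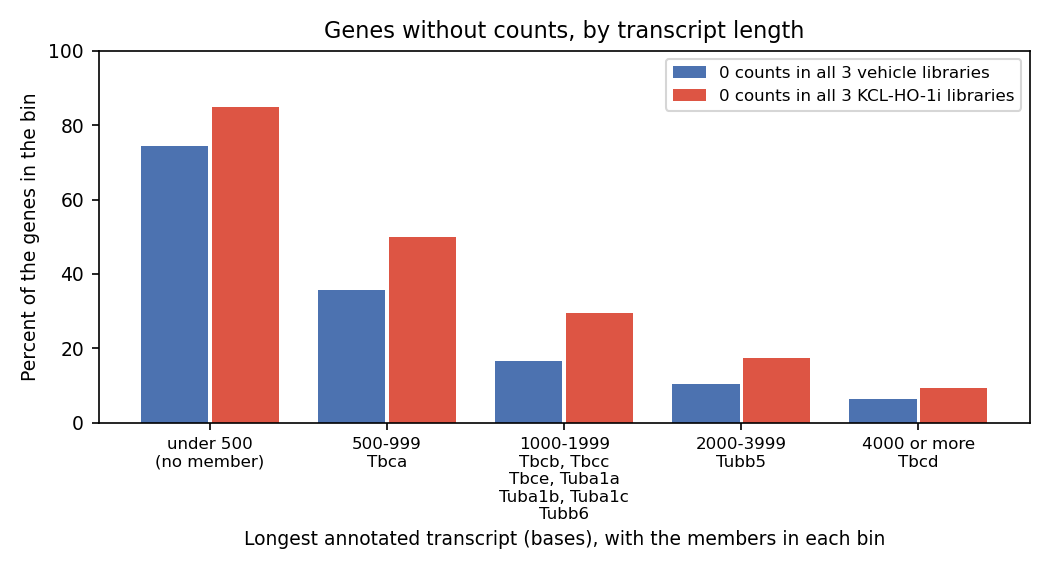
Percent of the genes in each class of transcript length (longest annotated transcript, in bases) with 0 counts in all 3 vehicle libraries (blue) or all 3 KCL-HO-1i libraries (red), with the tubulin pathway genes of each class named below it. Both shares fall with length, from 35.6% and 49.8% in the class of Tbca to 6.26% and 9.46% in that of Tbcd.

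The 5 genes most like Tbca, by Euclidean distance in log2 CPM over the 6 libraries, were Ubxn1, Uqcrh, Ap2s1, Cyba and Psmc1. None of them encodes a tubulin or a tubulin folding factor. The distances rest on the counts that chose Tbca, and 5 of 21841 genes say little about the pathway. Ubxn1, which encodes a ubiquitin-binding partner of the ATPase p97, was counted 0 times in each vehicle library and 35, 40 and 88 times after KCL-HO-1i (distance 1.48). Uqcrh, a subunit of respiratory complex III, was counted 3, 0 and 1 times against 51, 58 and 109 times (distance 1.88). Ap2s1, the small subunit of the clathrin adaptor AP-2, was counted 0, 0 and 4 times against 37, 39 and 80 times. Cyba, the p22phox subunit of the phagocyte NADPH oxidase, was counted 1, 0 and 0 times against 25, 43.9 and 86 times, and Psmc1, an ATPase of the proteasome, 0, 0 and 1 times against 33, 18 and 114 times. With library totals in place of TMM, 4 of these 5 genes were again among the 5 nearest.

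Upstream of the cofactors, the chaperonin CCT folds tubulin and actin. Of its 9 genes 1 passed the filter, through its KCL-HO-1i counts alone, which favoured a positive sign, and 0 were called by edgeR. That gene was Cct8, counted 0, 8 and 1 times with vehicle and 44, 12 and 93 times after KCL-HO-1i (log2 fold change 3.69 ± 1.39 SE, edgeR quasi-likelihood adjusted p = 0.481). Cct2 was counted 0 times in each vehicle library and 0, 68 and 31 times after KCL-HO-1i, so it shared the zeros of Tbca with vehicle but not its presence in every KCL-HO-1i library. Cct4 was counted 0, 3.21 and 1 times against 12, 6 and 58.9 times, without overlap on the CPM scale, and Tcp1 15.3, 1.09 and 7.07 times against 0, 43.7 and 5.32 times. Of the 9 genes, Cct2, Cct3 and Cct6a were at 0 in every vehicle library, as were 14% of the whole table. Cct6a was also at 0 in every KCL-HO-1i library, as were 21.6% of the whole table.

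Prefoldin delivers the unfolded chains to CCT. Of its 6 genes 2 passed the filter, both with a positive fold change, and 0 were called by edgeR. Pfdn1 passed through its KCL-HO-1i counts alone, which favoured a positive sign. Pfdn1 was counted 2, 0 and 4 times with vehicle and 42, 19 and 43 times after KCL-HO-1i, without overlap (log2 fold change 3.97 ± 1.28 SE, edgeR quasi-likelihood adjusted p = 0.347). Pfdn5, at a log2 fold change of 0.98 ± 1.42 SE, overlapped between the groups. Of the 4 genes under the filter, Vbp1 was higher without overlap, at 1, 0 and 7 against 10, 13 and 8 counts, while Pfdn2, Pfdn4 and Pfdn6 overlapped. Thus 2 of the 6 were higher without overlap, as were 7.88% of the genes tested and 3.47% of the whole table. None of the 6 was at 0 in every vehicle library.

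The 3 further folding factors were each lower after KCL-HO-1i without overlap, as were 16.2% of the genes tested and 11.7% of the whole table. Of the 3, 2 passed the filter, through their vehicle counts alone, which favoured a negative sign, and edgeR called 0. Arl2, the GTPase of the dimer assembly, was counted 4, 6.17 and 3.22 times with vehicle and never after KCL-HO-1i, a decrease of at least 1.78-fold against a floor of 3 counts per library. Tbcel, a relative of TBCE that destabilizes tubulin, was counted 13, 25 and 13 times against 4, 4 and 0 times (log2 fold change -2.80 ± 1.46 SE, edgeR quasi-likelihood adjusted p = 0.699). Pdcl3, a phosducin-like regulator of CCT, was counted 25, 14.5 and 33 times against 4, 8.64 and 1 times (log2 fold change -2.46 ± 1.20 SE, adjusted p = 0.656 in the same edgeR test). Neither fold change passed the test.

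Of 15 other tubulin genes, 4 passed the filter, 1 with a positive and 3 with a negative fold change (median log2 fold change -0.75), and edgeR called 0. Tuba4a, an alpha tubulin made without the terminal tyrosine, showed the reverse of Tbca, being counted 17, 25 and 17.4 times in the vehicle libraries and never in the others. It passed the filter through these vehicle counts alone, which favoured a negative sign. The decrease was at least 7.75-fold against a floor of 3 counts per library, with 76.7 ± 28.4 CPM (SD, n = 3) in the vehicle libraries, and its edgeR quasi-likelihood adjusted p was 0.296. The beta tubulins Tubb2a (log2 fold change 1.48 ± 0.98 SE), Tubb3 (-0.18 ± 1.17) and Tubb4a (-1.33 ± 1.56) overlapped between the groups. Under TMM scaling Tuba1b was thus higher and Tuba4a lower without overlap, although neither was called by edgeR. Of the 15, Tubb4b alone was higher without overlap and Tuba4a alone lower, as were 3.47% and 11.7% of the whole table, respectively.

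Genes that regulate microtubules after assembly gave no common direction. Of 12, 5 passed the filter, 2 with a positive and 3 with a negative fold change (median log2 fold change -0.20), and edgeR called 0. Kif5b, a kinesin motor, was counted 19, 13.0 and 18.2 times with vehicle and 37, 58 and 87 times after KCL-HO-1i without overlap (log2 fold change 1.60 ± 0.79 SE, edgeR quasi-likelihood adjusted p = 0.658). Map4, which stabilizes microtubules, had a log2 fold change of -1.62 ± 0.88 SE, Mapre1, a tracker of growing ends, 0.38 ± 1.11, and Ttl, which restores the terminal tyrosine of alpha tubulin, -0.20 ± 1.44. The groups overlapped for these 3 genes. The 8 genes of cycling cells, which build a spindle of microtubules, took 0.0393% to 0.0949% of the counts with vehicle and 0.0207% to 0.0493% after KCL-HO-1i.

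**Figure D5:**
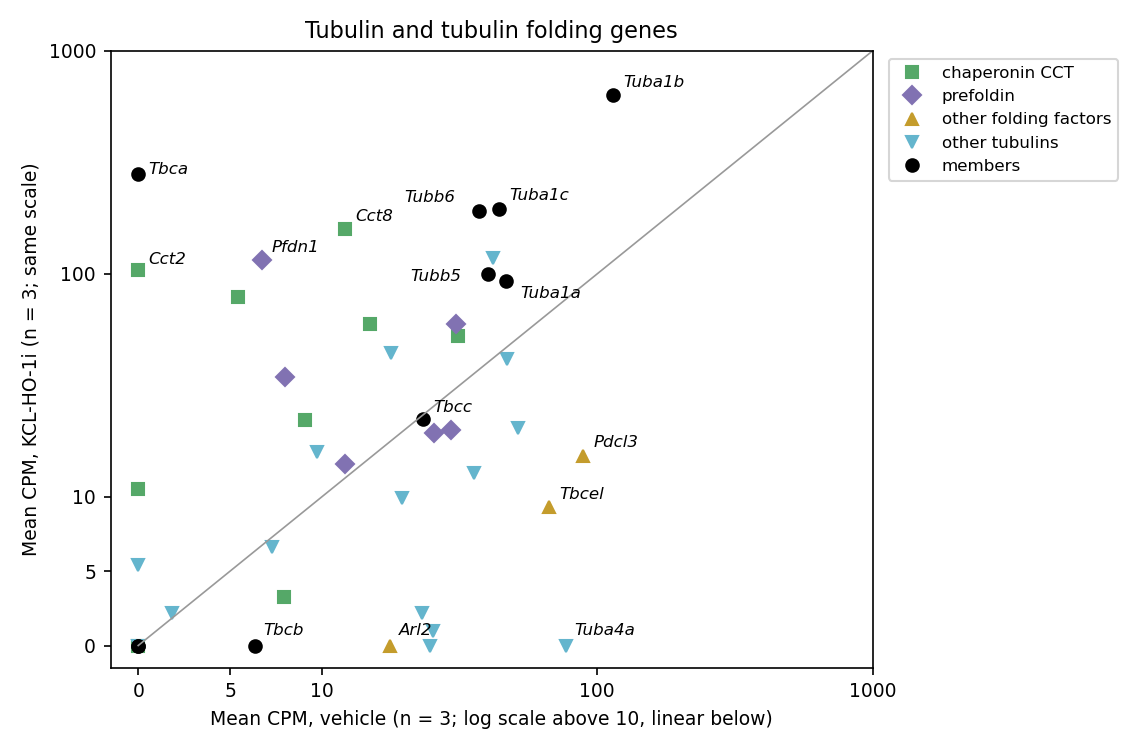
Mean TMM-scaled CPM with vehicle (horizontal) and KCL-HO-1i (vertical), 3 libraries each, for the 10 genes (black) and the CCT, prefoldin, other folding factor and other tubulin genes (log scale above 10, linear below, with the line of equal levels). Tbca lies on the vertical axis at 279 CPM, Tuba4a on the horizontal axis at 76.7 CPM, and Tbcd and Tbce at the origin.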

How the data were processed

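Bulk RNAseq of sorted CD206+LYVE-1+ TAMs was examined in 3 vehicle and 3 KCL-HO-1i mice. According to the submitters' processing notes and the paper's methods, the authors used FastQC 0.11.9, STAR 2.7.9a, Salmon 1.9.0 and mm10, and DESeq2 for testing. The annotation release is not given in the sources used here. The authors deposited estimated counts for each gene, summarized from transcripts, so a read that fits several genes is divided among them. The methods call them TPM counts, but the library totals differ, so they were treated as counts. All columns were assigned by animal code, leaving 0 unassigned.

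Estimated counts were rounded, filtered with filterByExpr (minimum count 10, minimum total 15), scaled with TMM and tested with the edgeR 4.0.16 quasi-likelihood test in R 4.3.3, with Benjamini-Hochberg adjustment over all genes tested. The fit was tested on simulated data. SE is the absolute log2 fold change over the square root of F. Alternatives were DESeq2 1.42.0, limma 3.58.1 (voom with quality weights), RLE, library totals, macrophage scaling, no mitochondrial genes, other filters, a replicate block and leaving out each library. The sum of the alpha tubulin counts was added after seeing the data. Single genes other than Tbca were compared with two-sided exact permutation tests on CPM, adjusted over those with counts, which leaves out Tbcd and Tbce. Distances used log2 CPM with a prior of 2 counts at the mean library size.

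Positions, lengths and sequences are from GENCODE M21 (GRCm38), and length was known for 99.0% of the genes. Genes named are the 10 members, up to 4 genes of highest mean CPM per list and the 5 nearest to Tbca. Cct3, Cct6a, Vbp1, Pfdn6, Tubb4b, Cx3cr1, Cd68, Fcgr1, Lalba and Cdh1 were named after their values were seen. Members and lists were chosen with earlier results of these data known. Since the labels do not describe separate cultures or litters, p-values measure the spread between these 6 samples. Replicate pairs differed beyond sampling noise (chi-square per degree of freedom 6.64 to 37.3), so none was merged.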

Additional observations from a re-analysis of the deposited data

How the results depend on the processing

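Each of the 5 tubulin genes kept its direction in 15 of 16 alternatives. Scaling to the general macrophage genes reversed all 5 (Tuba1a -2.12, Tuba1b -0.16, Tuba1c -1.0, Tubb5 -2.14, Tubb6 -0.76 in log2 fold change) and the summed alpha tubulins (0.614-fold), left 1 gene other than Tbca without overlap between groups (Tbcc, lower) in place of 2, and took the lower bound for Tbca from 24.2 to 3.14. The bound was 22.1 with library totals and 27.5 without mitochondrial genes. Limma called 1 of the 5 (Tuba1b, log2 fold change 2.66), and every other alternative called 0. Over all genes, 4400 were called with macrophage scaling, 82 without a filter, 165 and 236 by DESeq2 without and with the filter, and 299 by limma, against 0 in the edgeR test. The cause of these differences was not tested. Leaving out each library gave 0 to 74 calls over all genes, the 74 without vehicle replicate 1, and log2 fold changes of 2.26 to 3.63 for Tuba1b, 2.18 to 3.04 for Tubb6, 0.90 to 1.68 for Tuba1a, 0.74 to 2.90 for Tuba1c and 0.07 to 2.50 for Tubb5. With the replicate number as a block, 0 genes were called and Tuba1b had a log2 fold change of 2.69. No pairing of the mice by number was visible. Deviations of libraries with the same number correlated at -0.00263, 0.055 and -0.0326, and 2 of 6 libraries correlated best with their own number. With 3 mice a group this cannot settle whether the mice were paired. With the median instead of the longest transcript, 19.5% of the genes in the length class of Tbca were at 0 in every vehicle library, against 35.6%. Counts near the floor limit what can be said of Tbcb, Tbcc, Tbcd, Tbce and Arl2.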
